A study of Homo sapiens with 30 samples.

Results

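The data described here are the mock cells of a time course on BEAS-2B cells, a bronchial epithelial line of human origin that was immortalized with viral genes, between 55 min and 2h25 min of incubation that followed a mock exposure. Members were chosen by the labels alone: the samples with the condition air at 2h25 min were compared with those with the condition air at 55 min. That gives 3 arrays at each time, 6 of the 30 arrays of the series. All cells of the series were grown on Transwell inserts in BEGM medium and kept at the air-liquid interface, with medium on the basal side and air on the apical side, for 24 h before the exposure. Mock cells stood in the pollen sedimentation chamber while pressured air of 0.5 bar was let into it and no pollen reached them, and were then moved to another incubator. In the authors' view the puff of air did not reach the cells either. Pollen-exposed cells had 10 mg of whole birch pollen dispersed in the same way. The sample labels of the mock cells carry 10 mg as well. The paper describes the mock exposure both as devoid of pollen and as cells shielded from pollen by a fine mesh. The other times in the series are 10 min, 6h50 min and 24 h, with 3 mock and 3 pollen arrays at each. Every time has its own mock cells, but cells that never left the incubator were not analysed here, so each value below is a change between mock cells of different times. BEAS-2B is a single transformed line. The labels do not say what a replicate is, and the study describes its exposures as independent and repeated on different days, with a mock control in each run.

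Cells that are moved, sheared or cooled, or whose medium is disturbed, switch on immediate early genes within minutes, without any new protein being made. These genes are mostly transcription factors such as FOS, JUN and the EGR family, together with phosphatases, RNA-binding proteins and secreted proteins. Their RNAs are short-lived and their products in turn switch on a later set of genes, the secondary response, which includes the inhibitors that end the signal. MAP kinases acting through serum response factor drive most of the first set. Mechanical tension and loss of cell contacts act through YAP and TEAD, which drive CCN1 and CCN2.

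The measurement was gene expression on one-colour Agilent arrays, in which RNA labelled with the dye Cy3 gives each spot a brightness. A value is the scaled log2 signal of a probe, with 0 at the 75th percentile of its array. A total of 32102 probes were tested, those that stood well above background in every array of some group, and they stand for 17923 gene symbols. A probe was called where limma gave an adjusted p under 0.05 and the change was at least 1.1-fold. A gene with several probes is given by the brightest, unless another is named. Between 44.7% and 59.3% of the probes of the main design were well above background on an array, and no spot was saturated. The 3 arrays per group limit the precision of every value. All 14 epithelial genes looked at, among them EPCAM, CDH1 and the keratins KRT5 and KRT18, were above background on all 6 arrays. Of 11 mesenchymal genes 9 were as well, and COL3A1 and LUM were on none. Of the 6 leukocyte genes on the array 5 were above background, and of 6 endothelial genes 3 were. Standing above background thus did not set the epithelial genes apart. Their mean level was higher, but this did not hold for each gene. Over all arrays the mesenchymal VIM was dimmer than KRT7 but brighter than KRT18 and KRT19. These are signals of different probes, and their relation to amounts of RNA was not tested. The mean scaled log2 signal of tested members on the 6 arrays was 1.52 to 2.05 for epithelial and -1.07 to -0.26 for mesenchymal genes. It was -3.94 to -3.29 for leukocyte and -5.15 to -4.21 for endothelial genes. The medians of these 4 lists changed by -0.16 to -0.05 between the times, with 0 genes called.

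One array stood apart from its group. Mock replicate 3 at 55 min had higher values of many immediate early genes and cytokines than the other 2 arrays of that time. For FOS, the transcription factor subunit of AP-1, the scaled log2 signals at 55 min were -1.83, -1.06 and 2.33, and for its relative FOSB they were -3.03, -3.79 and 0.42. The mean scaled log2 signal over 26 immediate early transcription factors was -1.12 and -0.90 on replicates 1 and 2 and 0.02 on replicate 3. Many results that rest on this array are given with and without it. For others, such as JUN, NR4A1, NR4A2, DUSP5 and CCN1, only the value with it is given. At 55 min, replicate 1 was hybridised on a slide with the 10 min arrays, and replicates 2 and 3 shared a slide with replicates 1 and 2 at 2h25 min. Replicate 3 at 2h25 min was on a slide with the 24 h arrays. No slide held arrays of both 10 min and 2h25 min, so time and slide cannot be told apart between these times. Values within the shared slide, 2 arrays against 2, are given beside NAB2, CCN2 and EGR1 and for some of the lists. They hold replicate 3 of 55 min and leave out other arrays, so they do not separate the part of the slides.

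Sequences of 250 bases before the start of 4 of the 5 called genes are shown first, since the results turn on these genes. They are from RefSeq (GRCh38.p14), read 5′ to 3′ in the direction of the gene. EGR1 is on the plus strand at chr5:138465229-138465478, CCN2 on the minus strand at chr6:131951373-131951622, NAB2 on the plus strand at chr12:57088864-57089113 and NABP1 on the plus strand at chr2:191677886-191678135. Capitals mark matches to the CArG box, which serum response factor binds, in EGR1, to the EGR site GCGNGGGCG in EGR1, NAB2 and NABP1, and to the TEAD site GGAATG in CCN2.
EGR1: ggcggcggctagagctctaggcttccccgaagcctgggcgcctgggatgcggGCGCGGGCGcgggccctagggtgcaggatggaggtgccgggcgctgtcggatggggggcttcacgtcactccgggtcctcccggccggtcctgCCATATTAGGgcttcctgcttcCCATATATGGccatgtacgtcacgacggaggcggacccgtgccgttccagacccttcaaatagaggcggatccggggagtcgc
CCN2: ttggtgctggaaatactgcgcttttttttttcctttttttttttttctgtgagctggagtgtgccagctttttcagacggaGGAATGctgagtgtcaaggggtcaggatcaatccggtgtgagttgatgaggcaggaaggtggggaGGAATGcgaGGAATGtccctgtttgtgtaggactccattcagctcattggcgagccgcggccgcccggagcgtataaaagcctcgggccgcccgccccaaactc
NAB2: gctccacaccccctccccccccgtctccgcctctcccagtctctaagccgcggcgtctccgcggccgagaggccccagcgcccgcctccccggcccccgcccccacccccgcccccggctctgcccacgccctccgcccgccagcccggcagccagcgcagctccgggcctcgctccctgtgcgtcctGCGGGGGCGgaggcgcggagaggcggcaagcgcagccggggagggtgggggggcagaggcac
NABP1: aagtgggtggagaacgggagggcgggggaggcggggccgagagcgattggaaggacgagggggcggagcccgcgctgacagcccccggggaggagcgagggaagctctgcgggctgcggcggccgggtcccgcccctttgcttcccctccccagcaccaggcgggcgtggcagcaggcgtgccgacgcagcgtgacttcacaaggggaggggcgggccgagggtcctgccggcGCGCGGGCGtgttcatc

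Both strands were searched, and no match overlapped another. The EGR1 promoter held 2 CArG boxes, which began 105 and 83 bases before the start, and an EGR site that began 198 bases before it. In the CCN2 promoter 3 TEAD sites began 169, 104 and 95 bases before the start. A single EGR site began 62 bases before the start of NAB2, and another 17 bases before that of NABP1. Among 35116 RefSeq promoters of the same length 1.16% held a CArG box, 8.41% the EGR site and 11.9% the TEAD site. The CRE TGACGTCA, found in 1.65% of promoters, and the AP-1 site TGANTCA, found in 6.57%, were in none of the 4. These matches are descriptions of the letters and not of binding.

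Between 55 min and 2h25 min few genes of the mock cells moved beyond the spread between arrays. EGR1, a zinc finger transcription factor of the immediate early class, and CCN2, a secreted matricellular protein and YAP target, fell. NAB2, the corepressor that binds EGR1 and blocks its activity, rose, as did NABP1, a single-stranded DNA binding protein of the DNA damage response. The call of EGR1 was lost without replicate 2 or 3 of either time (changes of -1.91 to -1.40). In all limma called 5 of the 32102 probes (0.0156%), 3 higher (0.00935%) and 2 lower (0.00623%), and the unadjusted p was under 0.05 for 1380. In bulk RNA, fewer cells that express a gene and less RNA per cell cannot be told apart.

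**Figure D1:**
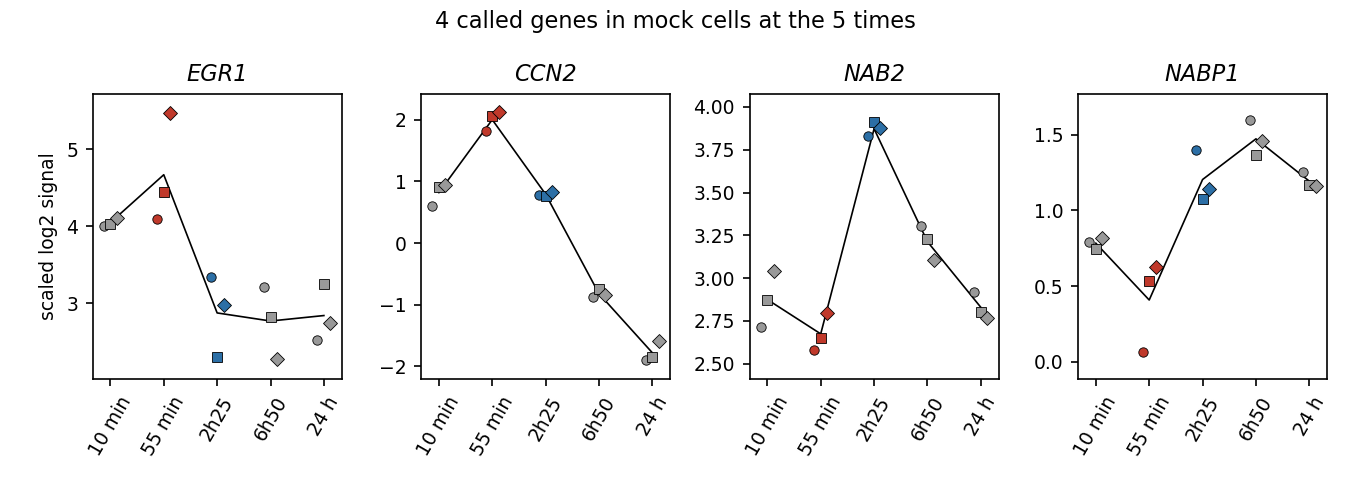
Scaled log2 signal on the y axis of 4 called genes in the mock cells at each time on the x axis, with 1 symbol per array (circle, square and diamond for replicates 1, 2 and 3) and a black line at the group mean. The times 55 min and 2h25 are red and blue and the others grey. The 3 arrays of 2h25 min lie above those of 55 min for NAB2 and NABP1 and below them for EGR1 and CCN2, and the panel of NABP1 shows its brighter probe, which was not the called one.

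NAB2 (probe at chr12:57489162-57489221 on hg19) had scaled log2 signals of 2.58, 2.65 and 2.80 at 55 min and 3.83, 3.91 and 3.88 at 2h25 min. The arrays of 2h25 min were all higher than those of 55 min, and each group kept within a narrow range. The rise was 1.20 on the log2 scale (SE 0.12, 95% interval 0.95 to 1.44, n = 3 against 3), or 2.29-fold, with limma's adjusted p = 1.55e-05. At 10 min the signals were 2.71, 2.87 and 3.04, near those of 55 min, so that 2h25 min was also 1.00 above 10 min (adjusted p = 0.000685), on other slides. Later the mean was 3.21 ± 0.10 at 6h50 min and 2.83 ± 0.08 at 24 h (SD, n = 3). NAB2 thus stood highest at 2h25 min among the 5 mock times. The change was 1.15 within the shared slide, and without replicate 3 at 55 min it was 1.26 (adjusted p = 1.21e-04). Without that array 3 probes were called (0.00935%), 2 higher (0.00623%) and 1 lower (0.00312%).

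CCN2 (probe at chr6:132270130-132270189 on hg19), which promotes adhesion and matrix production, had signals of 1.82, 2.06 and 2.12 at 55 min and 0.78, 0.77 and 0.83 at 2h25 min. The groups did not overlap, and the arrays of 2h25 min lay close together. It fell by 1.21 (SE 0.12, 95% interval -1.46 to -0.96), 2.31-fold lower, with an adjusted p = 1.55e-05 from limma. Its values at 10 min were 0.61, 0.91 and 0.94, and from there to 55 min it had risen by 1.18 (adjusted p = 4.62e-05). That earlier comparison, which uses the same arrays of 55 min, called 60 probes (0.187%), 37 higher (0.115%) and 23 lower (0.0716%). With the slide as a block it called 9. The CCN2 signal at 2h25 min was among those of 10 min, which were on another slide. The difference between these times was -0.03 (adjusted p = 0.958). CCN2 was lower still at 6h50 min, with a mean of -0.82 ± 0.07, and at 24 h, with -1.78 ± 0.17. Within the shared slide the change was -1.32, and without replicate 3 at 55 min CCN2 fell by 1.15 (adjusted p = 4.17e-04).

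EGR1 (probe at chr5:137804891-137804950 on hg19) had signals of 4.10, 4.44 and 5.46 at 55 min and 3.33, 2.31 and 2.98 at 2h25 min. Every array of 2h25 min was lower, and replicate 3 of 55 min was the highest of all. It fell by 1.79 (SE 0.30, 95% interval -2.43 to -1.16), 3.47-fold lower, with limma's adjusted p = 0.0378. At 10 min EGR1 was already at 4.0, 4.02 and 4.11, and the change from 10 to 55 min was 0.62 (adjusted p = 0.471). By 6h50 min the mean was 2.77 ± 0.47 and at 24 h 2.84 ± 0.37. Without replicate 3 at 55 min the change was -1.40 and the call was lost (adjusted p = 0.264), while within the shared slide, which holds that array, it was -2.13.

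NABP1 had 2 probes. The called one (chr2:192543838-192546714 on hg19) read -2.09, -1.84 and -1.78 at 55 min and -1.14, -1.34 and -1.24 at 2h25 min, a rise of 0.67 (SE 0.11, adjusted p = 0.027). The brighter one (chr2:192551555-192551614) read 0.06, 0.53 and 0.63 at 55 min and 1.40, 1.07 and 1.14 at 2h25 min, a change of 0.80 (SE 0.15) that did not pass the threshold (adjusted p = 0.0709). On both probes every array of 2h25 min was higher than every array of 55 min. The called probe remained called without replicate 3 at 55 min, at 0.73 (adjusted p = 0.0412). Its call was lost without replicate 1 or 2 at 55 min and without replicate 1 or 3 at 2h25 min. It was also lost with the slide as a block, within the shared slide, with quantile normalization and with the 15 mock arrays only, among other settings. Over 24 alternatives its change ran from 0.40 to 0.73.

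Genes were then grouped into 26 lists by what they are known to do. List medians are relative to the scaling: without any scaling between arrays the median of all tested probes was -0.29 in place of -0.03, and the medians of lists that are above 0 below were then under 0. The immediate early transcription factors had the lowest median of the 26. Of 27 genes 26 were tested, 1 was called (EGR1, lower), and 21 had a lower mean at 2h25 min than at 55 min. The median log2 change was -0.20, against -0.01 over all 17923 genes. For 8 of the 26 (30.8%) all arrays of 2h25 min lay below all of 55 min, where this held for 888 of all genes (4.95%), and for 0 of the 26 they lay above, where this held for 1201 of all genes (6.7%). Without replicate 3 at 55 min the median was -0.01 and the members were split evenly, 13 higher and 13 lower, while 8 genes lay apart on the lower side (10.4% of all genes, 3 arrays against 2) and 2 on the higher side (15.6%). Within the shared slide, which holds that array, the median was -0.52. The median thus rests on replicate 3. The number of genes apart on the lower side cannot fall when an array is left out, so the unchanged 8 is no sign of a change that holds without it. Over all genes the share on that side rose from 4.95% to 10.4%.

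EGR2, a relative of EGR1 with the same binding site, had signals of -4.63, -3.68 and -2.65 at 55 min and -5.05, -5.43 and -5.52 at 2h25 min. The later arrays were all lower, with a log2 change of -1.68 (SE 0.35, adjusted p = 0.165), and without replicate 3 it was -1.18. With the slide as a block EGR2 was called (adjusted p = 0.0475). JUN, the partner of FOS in AP-1, went from 1.97, 2.16 and 3.08 to 1.83, 0.19 and 0.85, so that replicate 1 of 2h25 min reached nearly the lowest array of 55 min and the change was -1.45 (SE 0.34, adjusted p = 0.344). KLF2, a zinc finger factor known for its response to shear stress, went from 2.34, 2.21 and 2.62 to 1.37, 1.37 and 1.01. All its arrays of 2h25 min were lower, with a change of -1.14 (SE 0.24, adjusted p = 0.165), and it was -1.03 without replicate 3. HES1, a repressor driven by Notch, went from -3.63, -3.35 and -3.17 to -4.22, -4.57 and -4.39, a change of -1.01 (SE 0.22, adjusted p = 0.321), after a rise of 1.51 from 10 min that passed the test (adjusted p = 0.0039). EGR2, JUN, KLF2 and HES1 did not overlap between the times but did not pass the test.

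The 3 nuclear receptors of the NR4A family all had lower means at 2h25 min than at 55 min, and none was called. A difference between their changes was not tested. NR4A1 was above background on 3 of 3 arrays at 55 min and on 0 of 3 at 2h25 min, and was at least 1.61-fold lower, with an adjusted p = 0.999. NR4A2 went from -4.74, -4.51 and -3.53 to -5.82, -5.43 and -4.82, with all arrays of 2h25 min lower (log2 change -1.10, SE 0.35, adjusted p = 0.905). NR4A3 went from -3.05, -2.62 and -1.50 to -2.58, -3.03 and -2.46, and the groups overlapped (log2 change -0.30, SE 0.26). It had risen by 2.31 from 10 to 55 min (adjusted p = 1.04e-04) and was 2.01 above 10 min at 2h25 min (adjusted p = 0.00114). The NR4A3 signal at 2h25 min was thus still above that of the 10 min arrays, which were on another slide.

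FOS stood at -1.78, -2.25 and -1.55 at 2h25 min, near replicates 1 and 2 of 55 min and far below replicate 3, and the change of -1.67 (SE 0.64, adjusted p = 0.999) became -0.42 without that array. At 10 min FOS had been at -0.05, 0.18 and 0.81, above both of these replicates. FOSB was at -4.54, -4.82 and -2.72 at 2h25 min, a change of -1.90 (SE 0.69, adjusted p = 0.999) and of -0.62 without replicate 3. JUNB changed by -0.23 (SE 0.32), ATF3 by -0.17 (SE 0.34), MYC by -0.11 (SE 0.21) and KLF4 by -0.01 (SE 0.18). For JUNB, ATF3, MYC and KLF4 the groups overlapped, and each change was above 0 without replicate 3. FOSL2, a FOS relative, was highest in the list with 0.37 (SE 0.17, adjusted p = 0.999), and 0.56 without replicate 3. EGR3 was above background on 0 arrays of either time and was not tested.

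**Figure D2:**
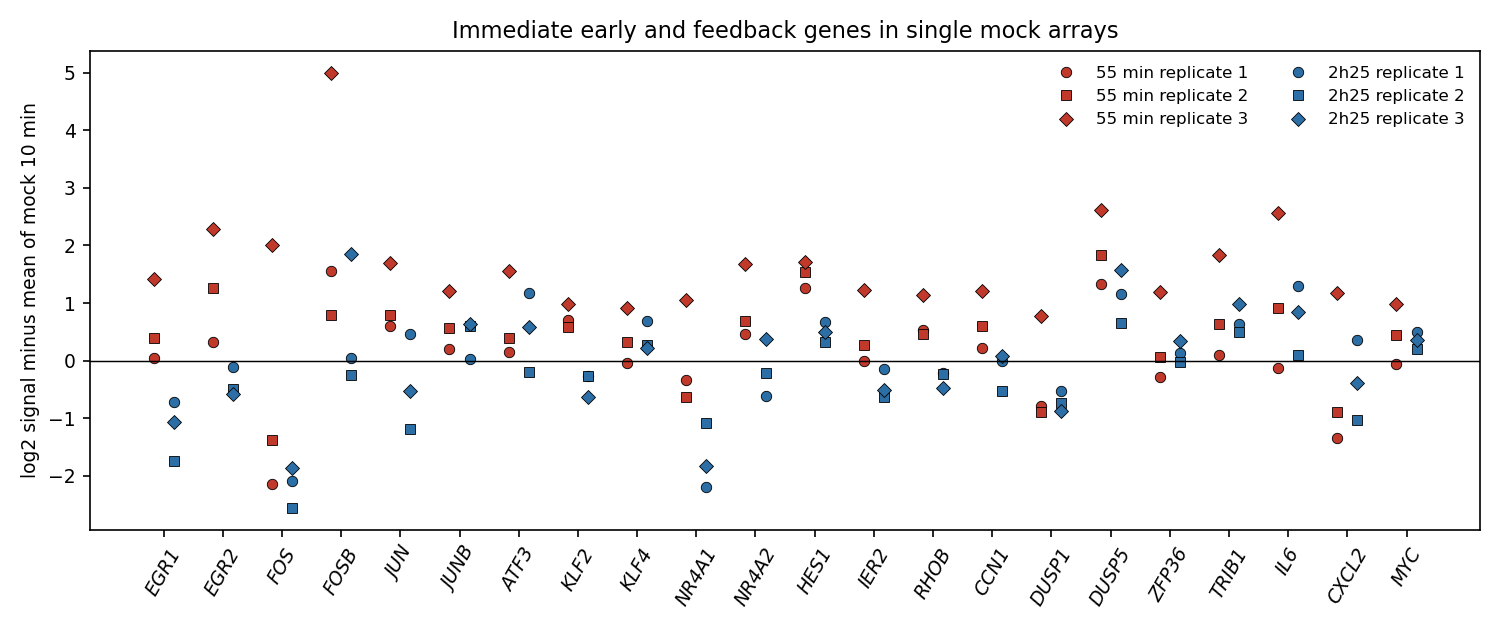
Log2 signal minus the mean of mock cells at 10 min on the y axis for 22 immediate early and feedback genes on the x axis, with 1 symbol per mock array (red at 55 min and blue at 2h25, with a circle, square and diamond for replicates 1, 2 and 3). The red diamond, replicate 3 of 55 min, is the highest of the 6 arrays in all genes shown, and all blue symbols lie below the red ones in EGR1, EGR2, JUN, KLF2, NR4A1, NR4A2, HES1, IER2, RHOB and CCN1.

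Among 20 tested immediate early genes that do not encode transcription factors 0 were called, 4 (20%) lay apart on the lower side and 1 (5%) on the higher side, against 4.95% and 6.7% of all genes. The median change was -0.05, and 0.12 without replicate 3 at 55 min. RHOB, a small GTPase of endosomes and actin, went from 0.85, 0.78 and 1.46 at 55 min to 0.11, 0.08 and -0.16 at 2h25 min. The arrays of 2h25 min were all lower, and the change of -1.01 (SE 0.19) narrowly missed the threshold (adjusted p = 0.0709). SGK1, a kinase that regulates sodium channels, went from -0.41, -0.48 and -0.39 to -1.28, -0.81 and -1.17, also without overlap (-0.66, SE 0.15, adjusted p = 0.344). IER2, a nuclear protein of unsettled function, went from 4.68, 4.97 and 5.92 to 4.55, 4.06 and 4.17 and changed by -0.93 (SE 0.24, adjusted p = 0.561), with all arrays of 2h25 min lower, and IER3 by -0.19 (SE 0.21) with overlap. RHOB and SGK1 differed little without replicate 3, at -0.80 and -0.64, whereas IER2 was at -0.56.

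Inhibitors of the same signals were mixed. Of 21 tested MAP kinase feedback genes, 1 was called (NAB2), and the median was 0.05. It was 0.11 without replicate 3 at 55 min and -0.03 within the shared slide. DUSP5, a nuclear phosphatase of ERK, went from -1.39, -0.88 and -0.10 to -1.57, -2.07 and -1.14, with overlap (log2 change -0.80, SE 0.24, adjusted p = 0.755). It had risen by 1.93 from 10 to 55 min (adjusted p = 3.87e-04). The cytoplasmic ERK phosphatase DUSP6 changed by -0.42 (SE 0.16), and DUSP1, which acts on JNK and p38, by -0.41 (SE 0.34). NAB1, the paralog of NAB2, went from 0.40, 0.46 and 0.78 to 0.97, 0.73 and 0.94 and changed by 0.33 (SE 0.10, adjusted p = 0.85), with 1 array of 55 min above the lowest of 2h25 min. In this list the 3 phosphatases had lower means at 2h25 min and both NAB genes higher ones, and only NAB2 passed the test. In the list of 10 mRNA decay regulators 0 were called and 0 lay apart, and the smallest p-values were those of TOB2 (0.17, SE 0.13) and ZFP36L1 (0.18, SE 0.17). ZFP36, which destabilises AU-rich RNAs, was at 0.50, 0.85 and 1.98 and then 0.90, 0.75 and 1.12, with overlap.

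Cytokines were not called. Of 21 tested genes of cytokines and chemokines 1 lay apart on the higher side (4.76%, against 6.7% of all genes) and 1 on the lower (4.76%, against 4.95%). The median was -0.15, or 0.07 without replicate 3 at 55 min and -0.47 within the shared slide, which holds that array. IL6 went from -0.97, 0.08 and 1.73 to 0.45, -0.75 and 0.01, CXCL8 from -4.19, -3.36 and -2.20 to -3.74, -4.01 and -4.17 and CXCL2 from 0.55, 1.01 and 3.07 to 2.27, 0.87 and 1.52. In each of these genes replicate 3 was the highest array of 55 min and the groups overlapped. IL11, a relative of IL6, had a mean that was 0.50 higher at 2h25 min (SE 0.23, adjusted p = 0.999) and TNF one that changed by -0.80 (SE 0.45). Of 6 tested EGF receptor ligands 0 were called and 0 lay apart, with 0.38 for HBEGF (SE 0.25) and 0.17 for EREG (SE 0.20).

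The feedback genes of NF-kB and of cytokine signalling had higher medians than all genes, without a call. For the 21 tested NF-kB genes the median was 0.18, or 0.22 without replicate 3, and 14 had a higher mean at 2h25 min. BCL3, an IkB protein that binds p50 and p52, went from 2.04, 2.33 and 2.66 to 2.76, 3.14 and 3.0, without overlap (0.62, SE 0.19, adjusted p = 0.819). The deubiquitinase OTUD1 changed by 0.24 (SE 0.10). For the 12 feedback genes of cytokine signalling the median was 0.19. On the higher side 5 lay apart (41.7%, against 6.7% of all genes). On the lower side 2 did (16.7%, against 4.95% of all genes), so both sides were above the share of all genes. SPSB1, an adaptor for a ubiquitin ligase, went from 1.08, 0.89 and 1.06 to 1.60, 1.27 and 1.53 (0.46, SE 0.10, adjusted p = 0.344), and SOCS3, which blocks receptors of the IL6 family, from -1.17, -0.92 and -0.85 to -0.54, -0.77 and -0.29 (0.45, SE 0.15, adjusted p = 0.94). In both the arrays of the times did not overlap.

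The list of 15 genes that the study named for the mock response was chosen on mock cells at 2h25 min, which may include these samples, so that its direction here is no independent evidence. None of the 15 was called. On the higher side 2 lay apart, SOCS3 and SERTAD1 (13.3%, against 6.7% of all genes), and 0 on the lower side (4.95% of all genes). The median of the list was 0.03, or 0.16 without replicate 3. Its members FOSB, DUSP5, DUSP6, SOCS3, IL6 and EREG are given above. TRIB1, a pseudokinase that binds MEK1, went from 0.48, 1.01 and 2.21 to 1.02, 0.87 and 1.36. The remaining log2 changes were 0.03 for ANGPTL4, 0.04 for CITED4, 0.06 for C8G, -0.01 for CSNK1G2, -0.14 for MT1B, 0.20 for RGCC, 0.18 for SERTAD1 and 0.30 for SNAI1, with SEs of 0.09 to 0.34. ANGPTL4, a lipoprotein lipase inhibitor, was at -0.12, -0.84 and 0.28 at 10 min, 1.19, 1.25 and 0.64 at 55 min and 0.97, 1.44 and 0.75 at 2h25 min, with overlap between the later times.

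Of 21 tested YAP targets only CCN2 was called, and the median was -0.07. CCN1, the close relative of CCN2, went from 5.21, 5.61 and 6.20 at 55 min to 5.0, 4.47 and 5.08 at 2h25 min. All arrays of 2h25 min were lower, and the change of -0.82 (SE 0.20) did not pass the test (adjusted p = 0.344). In all 3 of the 21 (14.3%) lay apart on the lower side, against 4.95% of all genes, and 0 on the higher side. A higher mean at 2h25 min was found for 6 (28.6%, against 48.4% of all genes), and the median was -0.04 without replicate 3 and -0.03 within the shared slide. Among 23 genes of the actin cytoskeleton and of serum response factor 0 were called and 2 lay apart on the higher side (8.7%, against 6.7% of all genes). The changes were 0.32 for the capping protein CAPZA1 (SE 0.09) and 0.20 for the myosin MYH9 (SE 0.10). Of 15 feedback genes of TGF-beta and BMP 0 were called, with -0.46 for SMAD6 (SE 0.24) and 0.30 for TGIF1 (SE 0.16).

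Glucocorticoid receptor targets, metallothioneins and clock genes had 0 calls each. The median of 16 glucocorticoid receptor targets was -0.12, and the smallest p-values belonged to SGK1 and to RGS2 (-0.39, SE 0.16). That of 12 metallothioneins and their regulators was -0.05, with 0.19 for the zinc transporter SLC30A1 (SE 0.09) and -0.42 for MT1G (SE 0.43), which was above background on 1 of 3 arrays at 2h25 min. Of 19 clock genes, CRY2, a repressor of the clock, read -0.39, -0.38 and -0.40 at 55 min and -0.03, -0.01 and -0.01 at 2h25 min. The arrays within each time were nearly equal and the groups lay apart, but the change of 0.38 (SE 0.09) did not pass over all probes (adjusted p = 0.386). BHLHE40, another repressor, changed by -0.44 (SE 0.16, adjusted p = 0.999). PER1 had risen by 0.72 from 10 to 55 min (adjusted p = 0.0138) and then changed by -0.15 (SE 0.13).

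The later set of genes showed no call either. Of 46 tested secondary response genes 31 had a higher mean at 2h25 min, and the median was 0.12, or 0.13 without replicate 3 and 0.06 within the shared slide. On the higher side 0 lay apart (6.7% of all genes), and the 3 on the lower side (6.52%) were near the 4.95% of all genes. RUNX1, a transcription factor, went from -0.55, 0.03 and 0.45 to 0.76, 0.27 and 0.93 (0.67, SE 0.22, adjusted p = 0.916), and the highest array of 55 min reached above the lowest of 2h25 min. ADAMTS1, a secreted protease, went from -4.02, -4.47 and -4.92 to -5.19, -5.22 and -5.79 without overlap (-0.93, SE 0.29, adjusted p = 0.905). As background, the median of all genes was -0.01.

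In ribosome biogenesis, the largest of the lists, most members had a higher mean at 2h25 min. Of its 53 genes 50 had a higher mean at 2h25 min, and for 18 (34.0%) all arrays of 2h25 min lay above all of 55 min, where this held for 6.7% of all genes. None lay apart on the lower side and 0 were called. The changes were small, with a median of 0.09 and a range from -0.19 to 0.33. POLR1C, a subunit of RNA polymerases I and III, read 1.47, 1.49 and 1.48 at 55 min and 1.93, 1.71 and 1.80 at 2h25 min (0.33, SE 0.09, adjusted p = 0.706), and the nucleolar GTPase GNL3 read 2.49, 2.80 and 2.76 and then 3.03, 2.86 and 3.01 (0.29, SE 0.11). In both genes no array of 55 min reached those of 2h25 min. Without replicate 3 at 55 min the median was 0.14 and 26 of the 53 (49.1%) lay apart, against 15.6% of all genes. Within the shared slide the median was 0.08. From 10 to 55 min the median of the same genes was -0.03. A shift of each array by its scaling adds the same amount to every member, so these genes are not independent counts.

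**Figure D3:**
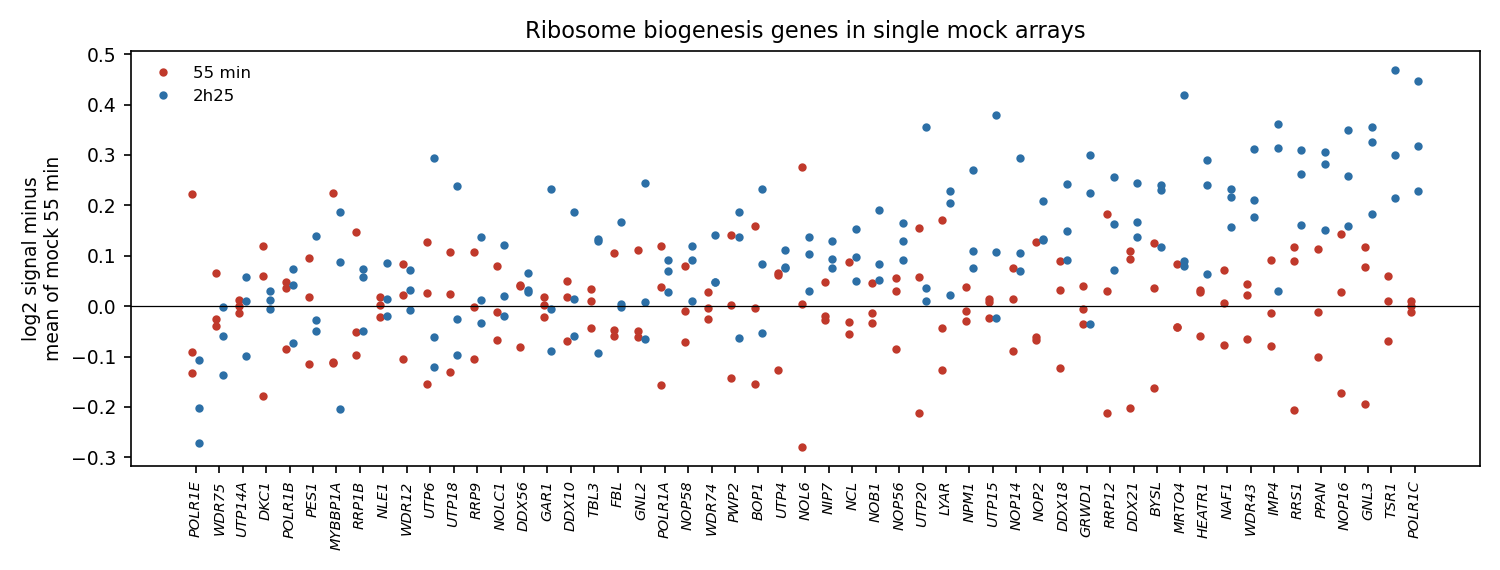
Log2 signal minus the mean of mock cells at 55 min on the y axis for each of the 53 ribosome biogenesis genes on the x axis, in order of their change, with 1 point per array (red at 55 min, blue at 2h25). The mean changes run from -0.19 for POLR1E to 0.33 for POLR1C, and in 18 genes the blue points all lie above the red ones.

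Genes of the unfolded protein and integrated stress response had a median of 0.14, and 25 of 31 had a higher mean at 2h25 min. On the higher side 2 lay apart (6.45%), near the 6.7% of all genes, and 0 on the lower (4.95% of all genes). CHAC1, which degrades glutathione and is a target of ATF4 and CHOP, read 3.26, 3.22 and 3.10 at 55 min and 3.55, 4.07 and 3.88 at 2h25 min. All arrays of 2h25 min were higher (0.64, SE 0.16, adjusted p = 0.386). XBP1, a transcription factor of the same response, changed by 0.28 (SE 0.13). Without replicate 3 at 55 min the median was 0.21 and 11 lay apart (35.5%, against 15.6% of all genes). In the shared slide alone the median was 0.06. This list too was bright, with mean scaled log2 signals of 3.01 to 3.31 on the 6 arrays. The part of brightness in its changes was not tested.

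Cholesterol synthesis genes mostly had lower means at 2h25 min. Only 1 of the 25 had a higher mean at 2h25 min, and the median was -0.16, but 0 were called and 0 lay apart. Without replicate 3 at 55 min the median was -0.26, all 25 were lower and 3 lay apart on that side (12%, against 10.4% of all genes). Squalene synthase, FDFT1, read 2.84, 2.41 and 2.41 at 55 min and 1.93, 2.42 and 2.32 at 2h25 min (-0.33, SE 0.23). Within the shared slide the median of the list was -0.03, and with the slide as a block it was -0.01, above the -0.04 of all probes.

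In the other lists 0 members were called. Their medians were 0.03 for hypoxia and glycolysis, 0.03 for heat shock chaperones, 0.01 for NRF2 targets, -0.03 for interferon-stimulated genes, 0.13 for p53 targets, 0.00 for cell division and -0.03 for DNA replication. Of the p53 targets 18 of 25 were higher in mean and 0 lay apart on the higher side. Their median was 0.22 without replicate 3 at 55 min, with 6 apart (24%, against 15.6% of all genes), and -0.02 within the shared slide. The members with the smallest p-values were PFKFB4 (-0.35) and ADM (0.27) for hypoxia, DNAJB6 (0.28) and DNAJB4 (-0.45) for chaperones, and MAFG (0.44) and TXNRD1 (0.21) for NRF2. For interferon they were HERC5 (-0.33) and MX2 (-0.64), for p53 PLK2 (-0.58) and TNFRSF10B (0.34), for cell division UBE2C (0.25) and KIF23 (0.18), and for replication CLSPN (-0.28) and FEN1 (-0.29). None of these 14 genes had an adjusted p under 0.05.

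**Figure D4:**
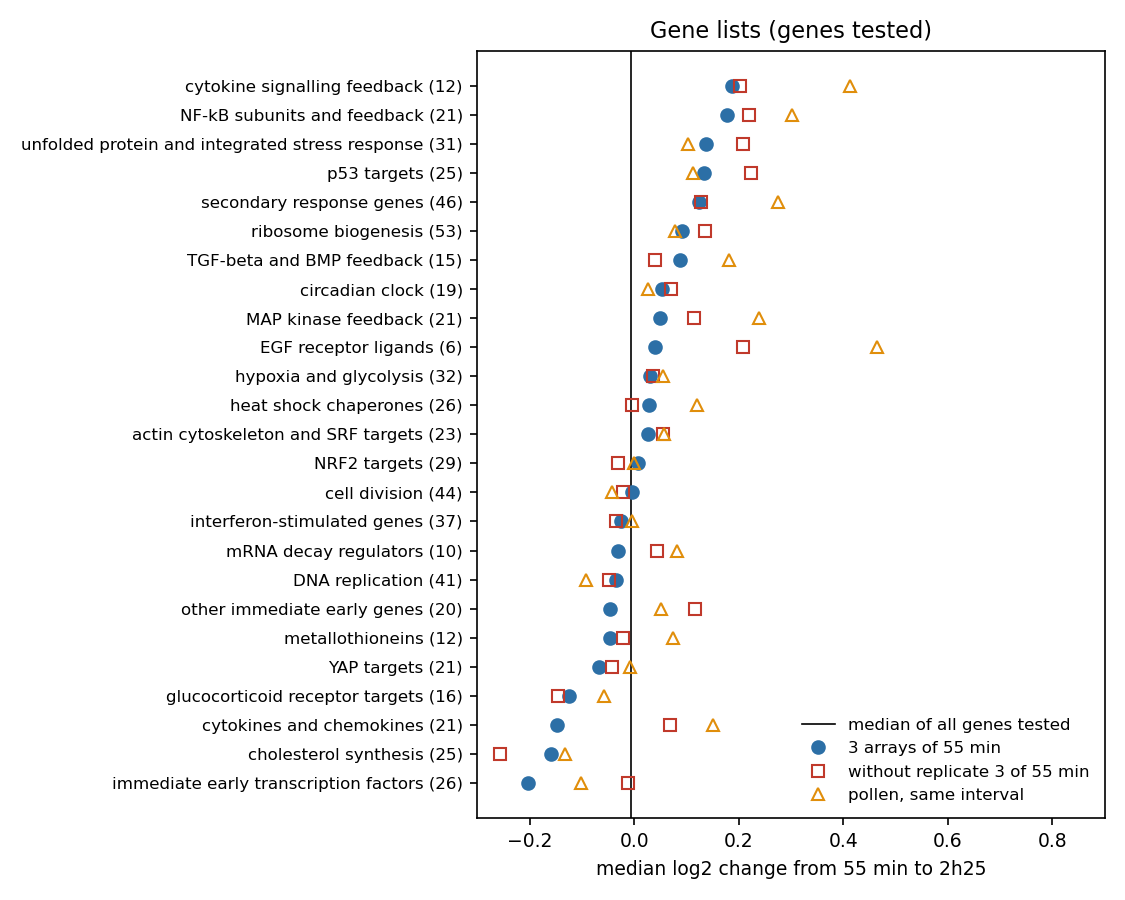
Median log2 change from 55 min to 2h25 min on the x axis for 25 of the lists on the y axis (the genes named by the study are left out), with the number of genes tested in brackets. Filled circles are mock cells, open squares mock cells without replicate 3 at 55 min and open triangles pollen-exposed cells, and the vertical line marks the median of all genes in mock cells. The immediate early transcription factors lie at -0.20 with all mock arrays and at -0.01 without that replicate, while ribosome biogenesis lies at 0.09 and 0.14.

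The same interval was measured on other arrays in pollen-exposed cells, which asks whether the mock change was also present there. NAB2, NABP1, EGR1 and CCN2 passed the test in pollen-exposed cells too, in the same direction as in mock cells. NAB2 rose by 1.22 (adjusted p = 1.83e-05) and NABP1, at its brighter probe, by 0.89 (adjusted p = 0.00659). EGR1 fell by 2.07 (adjusted p = 0.00205) and CCN2 by 0.58 (adjusted p = 0.0451). Over all probes 65 were called in pollen-exposed cells (0.202%), 51 higher (0.159%) and 14 lower (0.0436%).

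Several members of the lists that missed the threshold in mock cells passed it in pollen-exposed cells. EGR2 fell by 2.62 (adjusted p = 0.000869), RHOB by 1.17 (adjusted p = 0.00382) and IER2 by 1.17 (adjusted p = 0.0444). SOCS3 rose by 1.35 (adjusted p = 8.32e-05), BCL3 by 1.24 (adjusted p = 0.00297) and SPSB1 by 0.78 (adjusted p = 0.000889). PIM3, a kinase downstream of cytokine receptors, rose by 0.64 (adjusted p = 0.0203), NAB1 by 0.50 (adjusted p = 0.0435) and POLR1C by 0.45 (adjusted p = 0.0425). Of 54 genes called in pollen-exposed cells at their brightest probe, 44 higher and 10 lower, all 54 had the same sign in mock cells, where 48.4% of all genes were above 0. The median mock change was 0.40 for the 44 and -0.97 for the 10. Across all 17923 genes the changes in mock and pollen-exposed cells had a Pearson's r of 0.290 and a Spearman's rho of 0.369. These are across genes, which are not independent replicates. The exposures share no arrays, but they share slides and, as the study states, runs. Over 19404 probes the deviations of same-numbered mock and pollen arrays from their group means had correlations of 0.28, -0.07 and 0.40 at 55 min and of 0.64, 0.49 and 0.56 at 2h25 min, so that mock and pollen arrays of a number moved together in 5 of 6 pairs. The 54 shared signs are therefore no independent support for the mock changes, and the part of the runs in them was not tested.

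**Figure D5:**
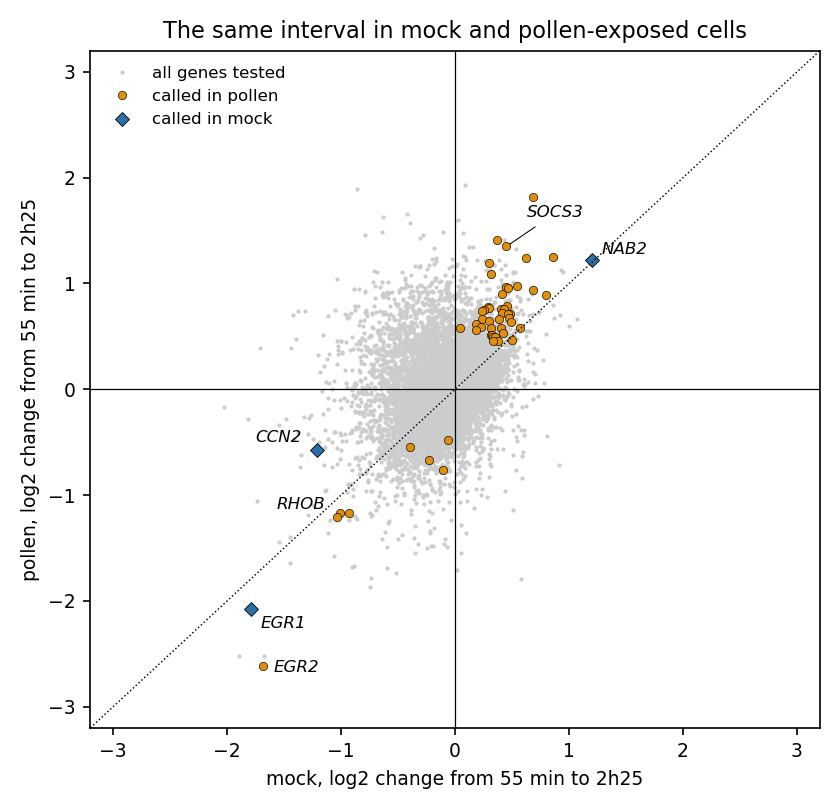
Log2 change from 55 min to 2h25 min in pollen-exposed cells on the y axis against that in mock cells on the x axis, with 1 grey point per gene (17923 genes), orange circles for genes called in pollen-exposed cells and blue diamonds for NAB2, CCN2 and EGR1, which were called in mock cells by their brightest probe. The dotted line marks equal changes, on which NAB2 lies, while CCN2 lies below 0 on both axes with the larger change in mock cells.

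The difference between the exposures in the change over time was tested by an interaction contrast. It called 0 of 32102 probes (0%), with an unadjusted p under 0.05 for 443 and a smallest adjusted p of 1.00. The fit holds group means only, so the intervals below leave out that same-numbered mock and pollen arrays mostly moved together. With those of each time and number as a block, over 12 arrays, 0 probes were called as well. For NAB2 the change in pollen minus that in mock cells was 0.02 (95% interval -0.32 to 0.37), and for EGR1 it was -0.28 (95% interval -1.17 to 0.61). For CCN2 it was 0.63 (95% interval 0.28 to 0.98, adjusted p = 1.00), and for SOCS3 0.90 (95% interval 0.47 to 1.33, adjusted p = 1.00). CCN2 and SOCS3 were among the genes with the smallest p-values, together with PLPPR3 (1.49), IL7R (2.26) and HIVEP1 (0.51), all with more positive changes in pollen-exposed cells. In the other direction they were ANKRD37 (-0.66), GALNT7-DT (-1.17), LHX5-AS1 (-2.37), SOX2-OT (-1.24) and ZNF425 (-0.42). None passed the adjustment over all probes, which does not show that the exposures changed alike.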

How the data were processed

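Gene expression was measured on one-colour Agilent arrays, 3 per group in 10 groups. The authors deposited spot intensities per array from Agilent Feature Extraction (version 11.0.1.1), from which, per the file headers, background had been subtracted and spatial trends removed within each array, with no scaling between arrays. A log2 table deposited by the authors, quantile normalized as its values show, served as an alternative. Of its 29 columns that were compared with the arrays, 23 were most like the array of their own sample. The columns were used as labelled. The paper names limma for preprocessing, without the background correction or the scaling.

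The files were read in R 4.3.3 (package data.table, version 1.17.8). Uneven and outlier spots were dropped, replicate spots were averaged and put on the log2 scale, and arrays were scaled by subtracting the 75th percentile of the 33873 probes that both array designs hold. One array, pollen replicate 1 at 55 min, is of another design with 42405 probes, and the others have 58201. A probe was tested where it stood well above background in every array of some group. Gene symbols came from RefSeq through a probe's accession (33536 probes) or name (4609), and 20056 probes kept the name in the file. Probe positions are those of the files (hg19), and the annotation of exons was not used here.

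With limma 3.58.1 (lmFit, eBayes) 10 group means were fitted to all 30 arrays, with 20 residual and 2.35 prior degrees of freedom, and p-values were adjusted by Benjamini-Hochberg over all tested probes. The script was tested on simulated data. The members, the 26 gene lists and the tests were chosen with earlier results of these data known. Some results, 1 called gene among them, are not reported here. Named genes are those called in mock cells, the called members of each list or otherwise its 2 members with the smallest p, the mock response genes in the text of the paper, 20 early genes fixed by name and the 5 genes in each direction with the smallest p in the interaction. Genes named beyond this rule were chosen after their values were seen. Genes were counted as apart where all arrays of one time lay above all of the other. Where a gene was below background on all arrays of a time, its fold is a lower bound against the lowest signal well above background on each array. Same-numbered arrays of 55 min and 2h25 min did not vary together throughout (correlations of -0.01, -0.05 and 0.24), so the numbers were not taken as pairs. The lists' genes SIK1, ARNTL, ALDOA, AKR1C2 and DDX58 had no probe under these symbols. No measurement column was left without a sample.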

Additional observations from a re-analysis of the deposited data

How the results depend on the processing

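NAB2, CCN2, EGR1 and the called probe of NABP1 kept their direction under all of 24 alternatives. NAB2 remained called under 19, with log2 changes of 0.93 to 1.26, and CCN2 under 19, with -1.47 to -1.15. EGR1 remained called under 13 and the called probe of NABP1 under 9. Of the values of all named genes under the alternatives, 1975 kept their direction and their side of the threshold, 21 were no longer called, 39 became called and 67 changed direction. The cause of these changes was not tested. Alternatives for the comparison of 55 min with 10 min, and leaving out both replicate 3 arrays of 55 min, were added after seeing the data.

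In mock cells the 5 calls became 3 with quantile normalization, 1 with the percentile over each array's own probes, 3 without scaling, 3 with normexp and quantile normalization, and 2 without the filter on dim probes. They became 10 with probes above background on all arrays only, 2 with the 15 mock arrays only, 0 with the 6 arrays of these times only, 163 with array weights, 8 with an intensity trend and robust prior, 0 within the shared slide, and 15 with the authors' log2 table. With the 6 arrays, and within the slide with 2 arrays per time, fewer degrees of freedom were left. Leaving out single arrays gave 2 to 5, with 3 without replicate 2 at 55 min, 3 without replicate 3 at 55 min and 2 without replicate 3 at 2h25 min. Without both replicate 3 arrays of 55 min it was 3. With a replicate block 0 probes were called in mock cells, over 6 or over 12 arrays, and 0 in pollen-exposed cells. The replicate numbers do not pair these samples, and the block uses degrees of freedom.

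In pollen-exposed cells the 65 calls became 31 with quantile normalization, 100 with the percentile over own probes, 9 without scaling, 36 without the filter, 547 with array weights and 0 within the shared slide, 28 to 61 leaving out single arrays, and 30 without both replicate 3 arrays. The interaction gave 1 call without the filter, 0 to 1 leaving out single arrays and 0 with the replicate block. The comparison of 55 min with 10 min in mock cells called 60 probes (0.187%). These became 7 with quantile normalization, 25 with the percentile over own probes, 1 with normexp, 33 with probes above background on all arrays, 23 with the 15 mock arrays, 2914 with array weights, 9 with the slide as a block, 157 with the authors' table, 8 to 200 leaving out single arrays (the highest without replicate 1 and the lowest without replicate 3 at 55 min), and 10 without both replicate 3 arrays.

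Some named genes that were not called changed direction. With the percentile over own probes the log2 change was 0.032 for KLF4 and 0.027 for CSNK1G2. With array weights the log2 change was 0.029 for ATF3, 0.030 for ZFP36, 0.064 for TRIB1, 0.042 for CSNK1G2 and -0.20 for ANGPTL4. With normexp and quantile normalization the log2 change was 0.035 for KLF4 and -0.0086 for CXCL2. With quantile normalization the log2 change was 0.0043 for KLF4 and -0.0092 for CXCL2. With the slide as a block the log2 change was -0.39 for CXCL2, 0.058 for CSNK1G2, -0.053 for CITED4, -0.0019 for EREG and -0.0027 for ZFP36L1. With the authors' table the log2 change was 0.037 for KLF4 and -0.013 for CXCL2. Without scaling the log2 change was -0.26 for CXCL2, -0.24 for ANGPTL4, -0.23 for CITED4, -0.20 for C8G, -0.092 for EREG, -0.081 for SERTAD1, -0.061 for RGCC, -0.018 for UBE2C, -0.089 for KIF23, -0.051 for TXNRD1, -0.097 for TOB2, -0.089 for ZFP36L1, -0.076 for SLC30A1, -0.021 for OTUD1 and -0.063 for MYH9. Within the shared slide the log2 change was -0.47 for CXCL2, 0.063 for CSNK1G2, -0.11 for CITED4, -0.11 for EREG and -0.049 for ZFP36L1. Leaving out single arrays of both times, the log2 change ran from -0.63 to 0.15 for NR4A3, -0.46 to 0.046 for JUNB, -0.50 to 0.26 for ATF3, -0.37 to 0.15 for MYC, -0.22 to 0.25 for KLF4, -0.39 to 0.096 for IER3, -0.71 to 0.13 for DUSP1, -0.49 to 0.25 for ZFP36 and -1.0 to 0.35 for IL6, and from -0.49 to 0.77 for CXCL2, -0.52 to 0.34 for TRIB1, -0.48 to 0.29 for MT1B, -0.079 to 0.052 for CSNK1G2, -0.17 to 0.18 for ANGPTL4, -0.045 to 0.14 for CITED4, -0.21 to 0.33 for C8G, -0.048 to 0.33 for EREG and -0.027 to 0.36 for ZFP36L1.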

Other observations

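Zinc finger genes, a group chosen after its values were seen and given without a test, had mostly small positive changes in mock cells. Among 520 tested genes whose symbol begins with ZNF, many of which encode repressors of the KRAB class, 334 had a higher mean at 2h25 min than at 55 min in mock cells, with a median log2 change of 0.06 against -0.01 over all genes. All arrays of 2h25 min lay above all of 55 min for 90 of them (17.3%, against 6.7% of all genes) and below for 23 (4.42%, against 4.95%), and 0 were called. The median was 0.06 without replicate 3 at 55 min and 0.09 within the shared slide. From 10 to 55 min the same genes had a median of -0.13, and 8 of the 520 were called lower, against 16 of all 17923 genes. Both intervals use the arrays of 55 min, so that a low value there enters both, with opposite signs. In pollen-exposed cells the median from 55 min to 2h25 min was 0.02, with 3 called higher and 1 lower, against 44 and 10 of all 17923 genes.

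Among the genes next in line after the called ones, also chosen after their values were seen, some had their lowest values at 55 min. SIX4, a homeobox transcription factor, had scaled log2 signals of -0.49, -0.43 and -0.69 at 10 min, -1.41, -1.35 and -1.47 at 55 min and -0.83, -0.87 and -0.84 at 2h25 min. It fell by 0.87 from 10 to 55 min (adjusted p = 3.87e-04), and the change after that was 0.57 (SE 0.11, adjusted p = 0.0828). MACIR, a regulator of macrophage responses, had signals of 0.83, 1.02 and 0.85, 0.44, 0.36 and 0.42 and 1.04, 0.88 and 0.79 at these times, with a fall of 0.49 (adjusted p = 0.0153) and then a change of 0.50 (SE 0.09, adjusted p = 0.0657). ZNF786 fell by 0.62 (adjusted p = 0.00244) and then changed by 0.38 (SE 0.09, adjusted p = 0.344). Mock replicate 1 at 55 min shared the slide of the 10 min arrays, whereas replicates 2 and 3 were on another, and both comparisons use the arrays of 55 min, so that a low value there enters both. The part of the slides in these values was not tested.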
